A study of Mus musculus with 8 samples.

Results

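Solute carriers are membrane proteins that move ions, metals, amino acids, sugars, vitamins and metabolites across the plasma membrane and organelle membranes. The genes described here are those whose symbol in the deposited probe table begins with Slc, a family number, the letter a and a member number, leaving out Slc2a1. The rule took 433 of the 25697 probes, which carried 291 of the 18138 symbols, and it used no measured value. Slc2a1 had 1 probe. RNA came from primary mouse aortic smooth muscle cells (mAoSMC), grown out of pieces of several aortas in serum-containing medium and given charcoal-treated serum before use. The control group was 3 samples transfected with a scrambled control oligonucleotide and the treated group was 3 samples transfected with the moR-21 mimetic, each at 5 nM and collected 48 h later, with the same transfection reagent in every sample. Control 1 and moR-21 3 were each measured on a pair of arrays, labelled replicate A and B, so that 8 arrays stood for 6 samples. Neither the labels nor the methods for these cells state the strain, age or sex of the mice.

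MicroRNA-offset RNAs (moRs) are small RNAs cut from the same hairpin precursor as a microRNA, next to the mature sequence. In vascular smooth muscle cells (VSMC), carriers set cell volume, pH, calcium and metal content, and several of them use the sodium gradient that the sodium-potassium pump maintains. Each solute carrier family is defined by sequence similarity, so that a family often, but not always, shares a kind of substrate. The precursor from which moR-21 comes is shown because every comparison below is of the moR-21 mimetic against the scrambled control. RefSeq places the Mir21a hairpin at chr11:86584067-86584158 on the minus strand of GRCm38.p6, and the 17 capitals mark the bases before mature miR-21a-5p, the side of the precursor from which the 5' moR-21 comes.
Mir21a hairpin: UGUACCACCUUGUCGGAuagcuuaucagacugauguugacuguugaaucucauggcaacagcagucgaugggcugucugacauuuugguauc
The capitals do not mark the ends of the mimetic, whose own sequence is not printed here.

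Each array had between 10285 and 10512 probes with a detection p-value under 0.01, and its median intensity was between 102 and 109. The number of samples limits the precision. Nothing in the labels says that the 3 samples of a treatment came from separate cultures, so the p-values measure only the spread between these samples. Of the smooth muscle markers, 7 of the 9 on the array were detected, and Cnn1 and Myh11 were not. Tagln was detected on 0 of 4 control and 4 of 4 moR-21 arrays, and Lmod1 on 1 control array and 2 moR-21 arrays. The summed linear signal of the list ranged from 10619 to 10979 in control and from 13382 to 14255 in moR-21 samples. Most of that sum was Acta2, called higher with a log2 fold change of 0.40. Without Acta2 the sum of the other 6 markers ranged from 1451 to 1488 in control and from 1413 to 1497 in moR-21 samples, and Des had a log2 fold change of -0.38 and was not called. The source label calls the cells smooth muscle cells while the description label abbreviates them as AoECs. The endothelial list had 1 of 8 markers detected, Vwf, with Pecam1, Cdh5 and Kdr not detected, and its sum ranged from 117 to 120 in control and from 118 to 126 in moR-21 samples. The macrophage list had Csf1r and Cd14 detected of 8, with sums of 1458 to 1526 in control and 1242 to 1269 in moR-21 samples. Cd14 made up most of these sums. It changed by -0.27 on the log2 scale, its samples did not overlap, and it was under the fold cutoff. Csf1r, detected on 3 control and 3 moR-21 arrays, changed by -0.01 and its samples overlapped. The lower sums were therefore mainly those of Cd14 and not of the list. The mesothelial list had Upk3b and Krt19 detected of 5 on the array, with sums of 770 to 778 in control and 402 to 415 in moR-21 samples. Upk3b was called lower, with a log2 fold change of -1.24. Krt19 had -0.13 (limma adjusted p = 0.12), and its samples overlapped. The part of these marker differences in the results below was not tested. In RNA from whole cultures, fewer cells of a type and less RNA per cell cannot be told apart.

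Solute carrier transcripts were detected for 123 of the 291 genes, on 164 probes. That is 42.3% of the carriers, against 48.1% of all symbols in the table. The 123 genes fell in 35 of the 45 families present. Of them 103 were detected on all 8 arrays and 20 on some arrays. Only these 123 of the 291 genes could be compared, and 168 genes had no probe above the detection limit on any array.

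A gene was called changed by limma when the fold change was over 1.3 and the Benjamini-Hochberg adjusted p, over all 11651 detected probes, was under 0.002. Fold changes are given as log2 of moR-21 over control, with each gene read at its brightest detected probe. Of the 123 carriers, 2 were called lower, Slc40a1 and Slc6a6, which is 1.63% of them, where 4.37% of all 8727 genes tested were called lower. Another 2 were called higher, Slc10a3 and Slc41a2, again 1.63%, against 3.4% of all genes. The carriers as a list therefore had no more calls than the array as a whole. The remaining 119 carriers passed neither cutoff or passed the p cutoff alone.

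**Figure D1:**
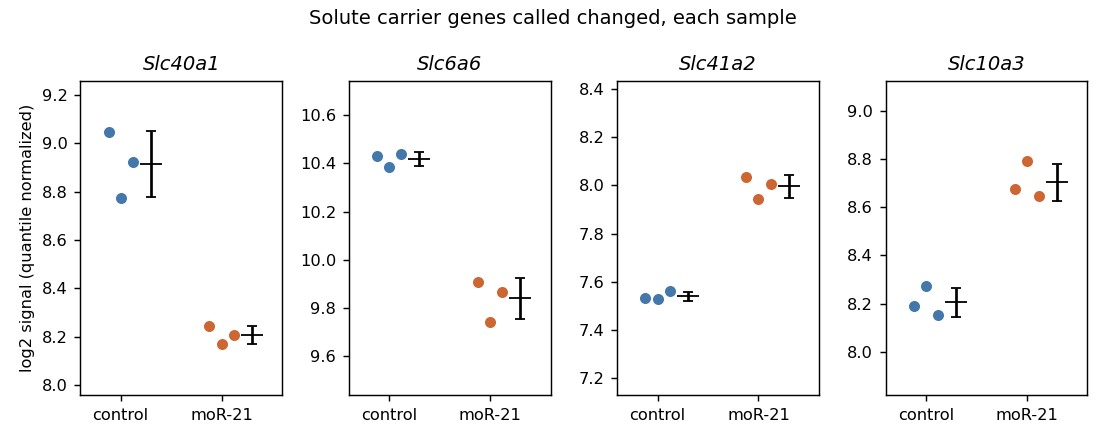
Normalized log2 signal of the 4 called carriers in each control and moR-21 sample (points), with the mean and SD (bars) of 3 samples. Each panel spans the same number of log2 units. Slc40a1 and Slc6a6 lie lower and Slc10a3 and Slc41a2 higher in all 3 moR-21 samples than in any control sample.

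Slc40a1 encodes ferroportin, the exporter of iron from cells, and had the lowest log2 fold change of the carriers. Its normalized log2 signal was 9.05, 8.78 and 8.92 in control samples 1 to 3, and 8.25, 8.17 and 8.20 in moR-21 samples 1 to 3. Every moR-21 sample was below every control sample, and the control samples were further apart than the treated ones. The mean was 8.91 ± 0.135 (SD, n = 3) in control and 8.21 ± 0.038 in moR-21 samples. The gene fell by 0.71 on the log2 scale (SE 0.062, 95% interval -0.84 to -0.58, limma adjusted p = 1.0e-06), and the signal fell by 38.8%. It ranked 87 from the lowest of 8727 genes. RefSeq places Slc40a1 at chr1:45908070-45926532 in GRCm38.p6.

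Slc6a6 encodes the sodium- and chloride-dependent taurine transporter, which takes up taurine as an organic osmolyte. Its log2 signal was 10.43, 10.39 and 10.44 in the control samples and 9.91, 9.74 and 9.87 in the moR-21 samples. The groups did not overlap, and the lowest treated sample was moR-21 2. The mean was 10.42 ± 0.028 (SD, n = 3) in control and 9.84 ± 0.086 in moR-21 samples. The gene fell by 0.58 on the log2 scale (SE 0.052, 95% interval -0.69 to -0.47, limma adjusted p = 1.3e-06), a signal that fell by 33.0%. It lies at chr6:91684048-91759063 and ranked 150 from the lowest of all genes tested.

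Slc10a3 is named in the bile acid carrier family, though its own substrate is not established. Its log2 signal was 8.19, 8.27 and 8.16 in control and 8.68, 8.79 and 8.65 in moR-21 samples. All 3 treated samples were above all 3 controls. The means were 8.21 ± 0.061 (SD, n = 3) and 8.70 ± 0.076, and the gene rose by a log2 fold change of 0.50 (SE 0.053, 95% interval 0.38 to 0.61, limma adjusted p = 6.9e-06), which is 41.2% more signal. It lies on the X chromosome, at chrX:74369217-74373349, and ranked 136 from the highest. The other members of the family that were detected, Slc10a6 and Slc10a7, had log2 fold changes of 0.07 and -0.02, and neither passed an adjusted p of 0.05.

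Slc41a2 encodes a magnesium carrier. Its log2 signal was 7.53, 7.53 and 7.56 in control and 8.04, 7.94 and 8.01 in moR-21 samples. The control samples lay close together and the treated samples were all above them. The means were 7.54 ± 0.019 (SD, n = 3) and 7.996 ± 0.047, and the gene rose by a log2 fold change of 0.45 (SE 0.046, 95% interval 0.36 to 0.55, limma adjusted p = 4.3e-06), or 37.0% more signal. With normexp background correction the same log2 fold change was 0.74. The gene lies at chr10:83230848-83338037 and ranked 181 from the highest. Slc41a3, the other family member on the array, had log2 signals of 7.89, 7.80 and 7.79 in control and 8.01, 8.13 and 8.15 in moR-21 samples. Slc41a3, with a log2 fold change of 0.27 (SE 0.052, adjusted p = 0.0010), went in the same direction but was under the fold cutoff. Its dimmer probe had 0.373 (limma adjusted p = 3.9e-05), also just under that cutoff.

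With exact permutation of the samples, 3 against 3 cannot give a two-sided p under 0.1, so the calls rest on the limma fit across all probes. At a fold change over 1.5 in place of 1.3, Slc40a1 was the 1 carrier still called. No carrier passed the fold cutoff of 1.3 and missed the p cutoff.

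Over all 123 carriers, 62 log2 fold changes were below 0 and 61 above. The median was -0.0077, beside 0.0055 over all genes tested, and the carriers' quartiles were -0.114 and 0.0761, beside -0.091 and 0.103. The median size of the change without its sign was 0.0989 for carriers and 0.0972 for all genes. The range ran from -0.71 to 0.50. At an adjusted p under 0.05, without a fold cutoff, 24 carriers were lower and 21 higher, 36.6% of the list, where 36.1% of all genes passed. In 63 carriers, 51.2% of them, the control and moR-21 samples did not overlap, 36 with the moR-21 samples below and 27 with them above, and this held for 46.3% of all genes. The counts of carriers were thus near those of the array in each of these measures. The median SE of a carrier's log2 fold change was 0.0497, beside 0.0506 over all genes.

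**Figure D2:**
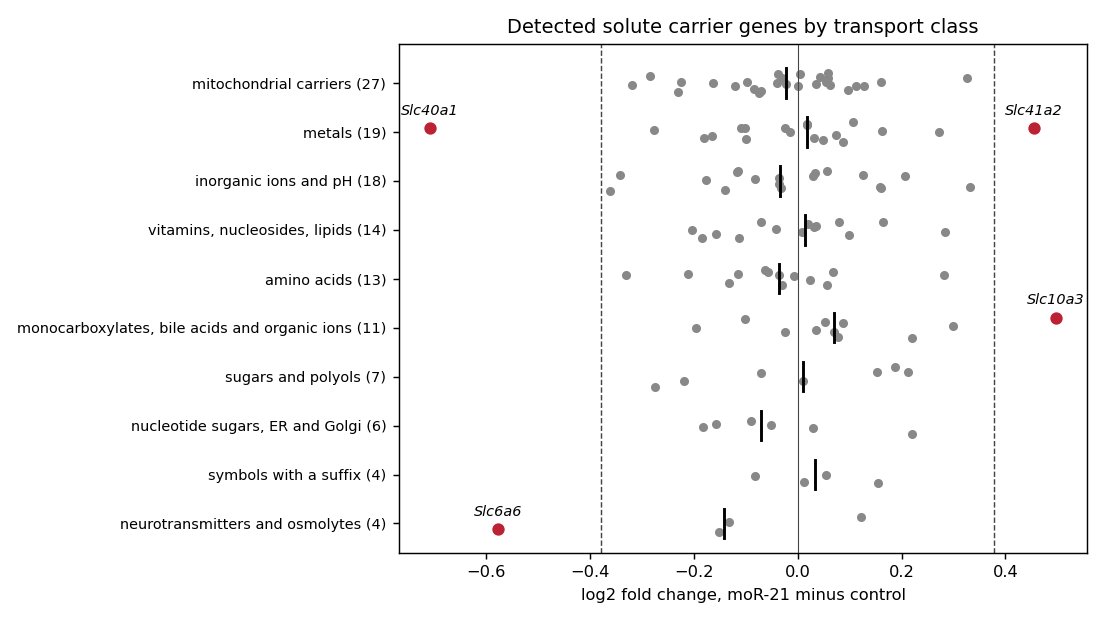
Log2 fold change (moR-21 over control) of each detected carrier, by transport class. Black ticks are class medians, dashed lines the fold cutoff of 1.3 in each direction and red points the 4 called genes. Most points of every class lie between the dashed lines, on either side of 0.

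The metal carriers had 19 of 28 genes detected and held 2 of the 4 called genes, Slc40a1 and Slc41a2. Their log2 fold changes had a median of 0.02, with 9 below 0 and 10 above. At an adjusted p under 0.05, 4 of the 19 were lower and 3 higher, where 36.1% of all genes passed in either direction. Besides ferroportin, the lower ones were Slc39a7, a zinc carrier of the endoplasmic reticulum and Golgi (-0.28, limma adjusted p = 0.00076), Slc11a2 (-0.18, adjusted p = 0.014) and the Golgi zinc carrier Slc30a6 (-0.16, adjusted p = 0.043). Slc11a2 encodes DMT1, which moves iron out of endosomes, and had log2 signals of 8.13, 8.10 and 8.14 in control and 8.03, 7.93 and 7.86 in moR-21 samples. Each treated sample was below each control. The zinc carrier Slc39a11 had a log2 fold change of 0.16 (adjusted p = 0.020). The plasma membrane zinc exporter Slc30a1 had 0.02, the copper importer Slc31a1 0.11 and Slc31a2 -0.11, none past 0.05.

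The class of inorganic ion and pH carriers had 18 of 49 genes detected and 0 called. At an adjusted p under 0.05, 3 of the 18 were lower and 4 higher, beside 36.1% of all genes in either direction. Slc8a1 and Slc12a2 were among the 3 largest changes in carriers that missed a cutoff. Slc8a1 encodes the sodium-calcium exchanger NCX1, and the study's supplement names it as a predicted target of moR-21. Its log2 signals were 7.53, 7.44 and 7.49 in control and 7.18, 7.11 and 7.15 in moR-21 samples. The treated samples were all lower, and the log2 fold change was -0.34 (SE 0.047, limma adjusted p = 6.9e-05). With normexp background correction it was -0.72 and the gene was called.

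Slc12a2 encodes NKCC1, which brings in sodium, potassium and chloride, and had log2 signals of 8.72, 8.62 and 8.71 in control and 9.07, 8.95 and 9.02 in moR-21 samples. All treated samples were above the controls, and the log2 fold change was 0.33 (SE 0.050, limma adjusted p = 0.00016). Its other detected probe had 0.28. Among the potassium-chloride cotransporters, which carry chloride outward, Slc12a7 had a log2 fold change of -0.18 (adjusted p = 0.012) and Slc12a4 0.03. The anion exchanger Slc4a2 had -0.08. Slc24a6, whose current symbol is Slc8b1, had 0.16 (adjusted p = 0.045).

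**Figure D3:**
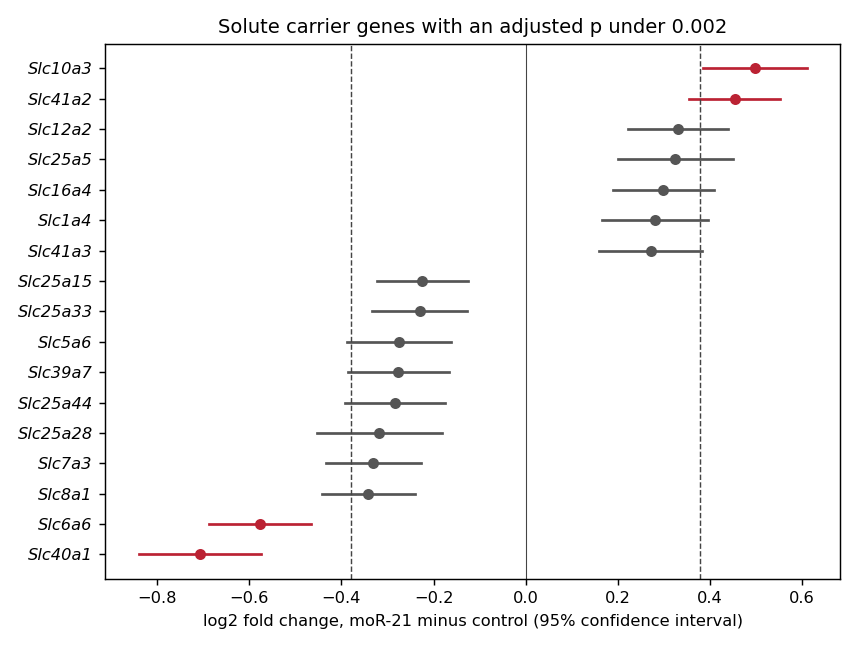
Log2 fold change (moR-21 over control, points) with its 95% interval (lines) for 17 of the 18 carriers with an adjusted p under 0.002. Of those drawn, 10 lie below 0 and 7 above, and 4 (red) pass the fold cutoff, drawn as dashed lines.

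In all, 18 carriers had an adjusted p under 0.002, 11 lower and 7 higher, and 14 of them were under the fold cutoff. The share of all genes past the p cutoff was 17.1%. The mitochondrial carriers of family 25 were the largest family, with 27 of 40 genes detected and 0 called. In this family 14 log2 fold changes were below 0 and 13 above, with a median of -0.02. At an adjusted p under 0.05, 5 of the 27 were lower and 3 higher, beside 36.1% of all genes in either direction. Slc25a5, an ADP-ATP exchanger of the inner membrane, had log2 signals of 11.81, 11.71 and 11.87 in control and 12.02, 12.15 and 12.20 in moR-21 samples. The treated samples were all above the controls, and the log2 fold change was 0.33 (limma adjusted p = 0.00059). The mitochondrial iron importer Slc25a28 (mitoferrin 2) had 10.10, 10.24 and 9.95 in control and 9.81, 9.78 and 9.75 in moR-21 samples. The groups did not overlap, and its log2 fold change was -0.32 (adjusted p = 0.0013). Without control 3, the lowest control sample for this gene, Slc25a28 was called lower. Mitoferrin 1, Slc25a37, had a log2 fold change of -0.04.

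The other mitochondrial carriers with an adjusted p under 0.002 were Slc25a44 (-0.28), a carrier of branched-chain amino acids, Slc25a33 (-0.23), a pyrimidine nucleotide carrier, and Slc25a15 (-0.22), the ornithine carrier. Slc25a15 was called lower with normexp background correction. The citrate carrier Slc25a1 had 0.16 (adjusted p = 0.022) and Slc25a26, which imports S-adenosylmethionine, 0.13 (adjusted p = 0.039). The phosphate carrier Slc25a3 had the largest difference between repeat arrays of all carriers, 0.565 on the log2 scale, with 10.56 on array A and 11.12 on array B of moR-21 3. Its log2 fold change was 0.11 (adjusted p = 0.25).

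The amino acid carriers had 13 of 36 genes detected and 0 called. Their median log2 fold change was -0.04, with 9 below 0 and 4 above. Slc7a3 encodes a cationic amino acid carrier and had log2 signals of 7.31, 7.29 and 7.28 in control and 6.93, 7.04 and 6.93 in moR-21 samples. Every treated sample was lower, and the log2 fold change was -0.33 (limma adjusted p = 0.00011). With normexp background correction Slc7a3 was called. Slc1a4 encodes the neutral amino acid exchanger ASCT1 and had 7.35, 7.22 and 7.40 in control and 7.65, 7.60 and 7.56 in moR-21 samples. It was above all controls in every treated sample, with a log2 fold change of 0.28 (adjusted p = 0.0010), or 0.54 with normexp background correction.

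The rest of this class had smaller values or larger adjusted p-values. The related exchanger Slc1a5 (ASCT2) had a log2 fold change of -0.06 (adjusted p = 0.49) and the glutamine carrier Slc38a2 (SNAT2) -0.11 (adjusted p = 0.068). The 3 detected probes of Slc38a2 gave -0.11, -0.22 and 0.00, and none was called. Slc38a10 had -0.21 (adjusted p = 0.0033). Slc3a2, the heavy chain of several amino acid exchangers, was detected on 1 of the 4 control arrays and on 0 of the 4 moR-21 arrays. Slc7a1 and the cystine carrier Slc7a11 were not detected, and Slc7a5 was not among the symbols that the rule took.

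Among the carriers of neurotransmitters and osmolytes, 4 of 29 genes were detected, and Slc6a6 was the called one. The creatine transporter Slc6a8 had a log2 fold change of 0.12 (adjusted p = 0.16), the glycine transporter Slc6a9 -0.13 (adjusted p = 0.12) and the lysosomal sialic acid exporter Slc17a5 -0.15 (adjusted p = 0.020). The class of monocarboxylate, bile acid and organic ion carriers had 11 of 38 detected, with a median log2 fold change of 0.07. Besides Slc10a3, Slc16a4 of the monocarboxylate carrier family had signals of 7.72, 7.67 and 7.77 in control and 8.05, 8.07 and 7.94 in moR-21 samples. The samples did not overlap, and the log2 fold change was 0.30 (limma adjusted p = 0.00043). The carnitine carrier Slc22a5 had 0.04, Slc22a18 0.22 (adjusted p = 0.0043) and Slc16a9 -0.20 (adjusted p = 0.0029). The lactate carriers Slc16a1 and Slc16a3 were not detected.

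The families of sugar and polyol carriers had 7 of 24 genes detected and 0 called. The gene of the smallest adjusted p there, Slc5a6, belongs by number to the sodium-glucose family but carries biotin and pantothenate, and had a log2 fold change of -0.28 (adjusted p = 0.00099), or -0.45 with normexp background correction. Of the glucose transporter family, Slc2a6 had 0.19 (adjusted p = 0.0072), Slc2a10 0.15 (adjusted p = 0.026), Slc2a8 0.01 and Slc2a9 -0.07. Slc45a3 and Slc45a4 had 0.21 (adjusted p = 0.0022) and -0.22 (adjusted p = 0.0027). Members of the same family therefore lay on opposite sides of 0.

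The same was seen among carriers of vitamins, nucleosides, lipids, choline and peptides, with 14 of 30 detected and 0 called. The folate carrier Slc19a1 had a log2 fold change of 0.16 (adjusted p = 0.018) and the thiamine carrier Slc19a2 had -0.19 (adjusted p = 0.0085). The fatty acid transport proteins Slc27a1 and Slc27a3 had 0.28 (adjusted p = 0.0050) and -0.20 (adjusted p = 0.0071). The nucleoside carriers Slc29a1 and Slc29a3 had 0.03 and -0.16 (adjusted p = 0.030), and the choline transporter-like gene Slc44a2 had 0.10. Of the nucleotide sugar and other Golgi and endoplasmic reticulum carriers, 6 of 10 were detected and 0 called. Slc35a2, which carries UDP-galactose, had 0.22 (adjusted p = 0.0039), and Slc35a4 had -0.05.

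Symbols with a suffix after the member number matched the rule for 7 genes. The 4 of them that were detected are not carriers themselves. They were Slc9a3r1 and Slc9a3r2, scaffold proteins that bind the exchanger NHE3 and had log2 fold changes of 0.05 and 0.01, Slc4a1ap (0.16, adjusted p = 0.024) and Slc7a6os (-0.08). None was called.

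Detection differed between treatments for 8 carriers that were, at the probe read, above the detection limit on arrays of 1 treatment alone, 5 on control arrays and 3 on moR-21 arrays. The clearest was the Golgi carrier Slc35a5, detected on 3 of 4 control and 0 of 4 moR-21 arrays. The zinc and iron importer Slc39a14 was detected on 2 moR-21 arrays and 0 control arrays, and the others on 1 or 2 arrays. None of the 8 was called. Their dimmer side is within background, so no single fold change is printed for them, but their fitted values are in the counts, the medians and the plot of log2 fold change by class. There 6 of them lie below 0 and 2 above, 1 is lower at an adjusted p under 0.05, and 4 are among the carriers whose samples did not overlap. Some carriers whose fold changes are printed above were also near the detection limit. Slc22a18, Slc2a10, Slc12a4 and Slc30a1 were each detected on 1 of 4 control arrays. Slc1a5 was detected on 2 control arrays and 1 moR-21 array, and Slc2a9 on 3 and 1.

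For 30 carriers more than 1 probe was detected. In 25 of them all detected probes had the same sign and in 5 they did not, and for 0 genes did the probes disagree on a call. The range of log2 fold changes over the probes of a gene had a median of 0.0684. The largest range was that of Slc25a11, the mitochondrial oxoglutarate carrier, whose 3 probes had -0.16, -0.27 and 0.00. The 3 probes of Slc39a7 had -0.28, -0.10 and -0.12.

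The partners of these carriers were followed in a list of 39 genes for iron handling, metal binding, ion pumps, cotransporter kinases, carrier chaperones, Slco organic anion transporters and osmolytes. All 39 were on the array and 26 were detected. Of these, 2 were called lower, Atp1b3 and Csad, and 1 higher, Tfrc, beside the 4.37% and 3.4% of all genes called in those directions. At an adjusted p under 0.05, 6 of the 26 partners were lower and 1 higher, where 36.1% of all genes passed in either direction.

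**Figure D4:**
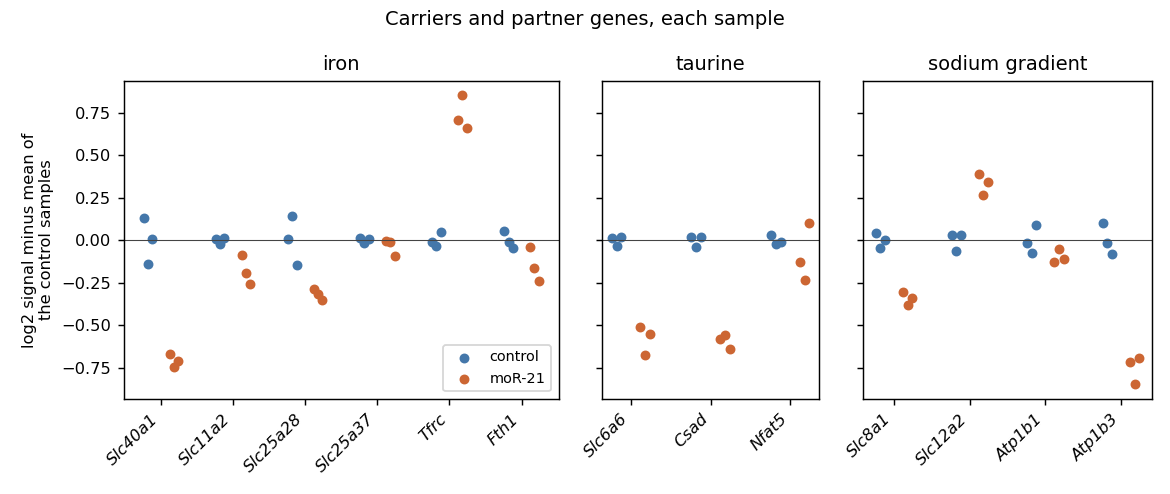
Log2 signal of each control and moR-21 sample minus the control mean of the same gene, for carriers and partners of iron, taurine and the sodium gradient. Slc40a1, Slc6a6, Csad and Atp1b3 show the moR-21 samples below 0 and Tfrc above 0, while the samples of both groups overlap for Fth1, Nfat5 and Atp1b1.

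Iron enters most cells through the transferrin receptor, Tfrc, is stored in ferritin and leaves through ferroportin. Tfrc had log2 signals of 7.12, 7.10 and 7.18 in control and 7.84, 7.98 and 7.79 in moR-21 samples. All treated samples were well above the controls, and Tfrc rose by a log2 fold change of 0.74 (SE 0.055, 95% interval 0.62 to 0.86, limma adjusted p = 2.2e-07), or 1.40 with normexp background correction. Its dimmer probe had 0.71 and was called too. The gene lies at chr16:32608896-32632794. The ferritin heavy chain gene Fth1 had 13.97, 13.91 and 13.87 in control and 13.88, 13.75 and 13.68 in moR-21 samples. The samples overlapped, and the log2 fold change was -0.15 (adjusted p = 0.057), with 0.03 at the other probe. The ferroxidase gene Cp had 0.18 and Ireb2, an iron regulatory protein gene, 0.13, neither called. Of the iron list 6 of 10 genes were detected, and Ftl1, Heph, Hamp and Steap3 were not. The carrier and receptor of iron thus had opposite signs, Slc40a1 lower and Tfrc higher, with the importers Slc11a2 and Slc25a28 below 0 and not called.

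Taurine is taken up by the Slc6a6 product and made in cells by cysteine sulfinic acid decarboxylase, the product of Csad. Csad had log2 signals of 7.58, 7.52 and 7.58 in control and 6.98, 7.00 and 6.92 in moR-21 samples. The groups were far apart next to their spread, and Csad fell by 0.59 on the log2 scale (SE 0.047, 95% interval -0.69 to -0.49, limma adjusted p = 4.0e-07), with -1.32 under normexp background correction. The gene lies at chr15:102176997-102205052. Nfat5, the transcription factor that raises Slc6a6 in hypertonic medium, had 8.88, 8.83 and 8.84 in control and 8.72, 8.62 and 8.96 in moR-21 samples. Its groups overlapped, and the log2 fold change was -0.09 (adjusted p = 0.38). Akr1b3, the aldose reductase that makes sorbitol, had 0.04, and Cdo1, the dioxygenase before Csad, was not detected.

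The sodium-potassium pump provides the gradient used by the exchanger Slc8a1 and by the cotransporters Slc12a2 and Slc6a6. Its subunit gene Atp1b3 had log2 signals of 10.91, 10.79 and 10.73 in control and 10.10, 9.96 and 10.12 in moR-21 samples. The treated samples were all below the controls, and Atp1b3 fell by 0.75 on the log2 scale (SE 0.058, 95% interval -0.88 to -0.63, limma adjusted p = 3.5e-07). It lies at chr9:96332655-96364431. Among the other beta subunit genes, Atp1b1 had -0.10 (adjusted p = 0.17). The calcium pump of the endoplasmic reticulum, Atp2a2, had -0.22 (adjusted p = 0.031), and its dimmer probe had -0.34 (adjusted p = 0.0011), under the fold cutoff.

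The kinase gene Stk39, whose product phosphorylates and activates the Slc12a2 cotransporter, had a log2 fold change of -0.29, and Wnk4 was not detected. Of the chaperones that bring monocarboxylate carriers to the membrane, Emb had -0.33 and Bsg -0.04. None of these was called. The metallothionein gene Mt1, which responds to zinc, had 0.03, and its regulator Mtf1 was not detected. Of the Slco genes 2 of 6 were detected and 0 called.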

How the data were processed

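Total RNA of 6 samples was measured on 8 Illumina mouse arrays. The authors deposited a non-normalized intensity per probe and array with its detection p-value, exported from BeadStudio, with no background correction stated. The submitters' processing notes name lumi. The methods name MouseWG-6 and MouseRef-8 designs. All columns were mapped by name and 0 were left without a sample. Groups were taken from the treatment labels.

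The intensities were quantile normalized over all 8 arrays and log2 transformed, and arrays of a sample were averaged. Probes detected (p-value under 0.01) on 1 array or more were compared with limma (lmFit, eBayes, no covariate) and Benjamini-Hochberg adjustment over all of them, at the study's cutoffs of 1.3-fold and an adjusted p under 0.002. The fit was tested on simulated data first. Symbols are those of the table, of which 288 of 291 are current in GRCm38.p6, 2 are synonyms and 1 was not matched, and positions come from that assembly through RefSeq.

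Named genes were the called carriers, the brightest detected member of each transport class, the 3 largest changes that missed a cutoff, Slc8a1, a fixed set of amino acid and lactate carriers, called partners and carriers whose probes disagreed on a call, and the others were chosen after their values were seen. The carriers, classes and lists were chosen with earlier results of these data known. Alternatives were normexp background correction (offset 16), median scaling, cyclic loess, other detection filters, array A or B alone, all arrays with duplicateCorrelation, trended robust eBayes, a replicate block, each sample left out, other cutoffs, and the mean of a gene's probes. Some members and partners are counted but not reported by name here. Authors' tables of fold changes were not used. R 4.3.3, limma 3.58.1, Python 3.11.15, numpy 2.4.6, pandas 2.3.3 and matplotlib 3.10.9 were used.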

Additional observations from a re-analysis of the deposited data

How the results depend on the processing

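Under 19 alternatives, 409 of 416 values of the 22 named genes that were tested kept their direction and side of the cutoffs. Slc40a1 stayed called in all of them, and Slc6a6, Slc10a3 and Slc41a2 in all but the fold cutoff of 1.5, under which 1 carrier was lower and 0 were higher. With normexp background correction 5 carriers were called lower (adding Slc8a1, Slc7a3 and Slc25a15) and 2 higher, and the median log2 fold change of the carriers was -0.0225. The median was 0.0050 with array A alone and -0.0211 with the mean of a gene's probes. Leaving out each sample in turn gave 2 to 4 carriers called lower and 2 to 2 higher. The count was 4 without control 3, Slc25a28 among them, and 3 without moR-21 1. The log2 fold change of Slc22a5 ran from -0.016 to 0.0642 over these, below 0 without control 3. The replicate number as a replicate block left 2 lower and 2 higher. With group means removed, same-numbered samples correlated at 0.187, 0.0441 and 0.0597. Samples with different numbers correlated at -0.13 to 0.0693, the highest being control 3 with moR-21 2. These values do not settle whether the numbers pair the samples. The cause of these differences was not tested. Partners called numbered 3 in every alternative.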
